A study of Homo sapiens with 10 samples.

Results

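A set of 10 named genes of xenobiotic and aldehyde metabolism were followed through the RNA-Seq libraries of EA.hy926 cells, a human line made by fusing umbilical vein endothelial cells with A549 lung carcinoma cells. The genes were *ALDH1A1*, *ALDH3A1*, *AKR1B10*, *AKR1C1*, *AKR1C2*, *AKR1C3*, *CYP24A1*, *AADAC*, *UGT1A6* and *SLCO1B3*, 10 of the 27945 gene symbols in the deposited table. They were chosen by name, with earlier results from these libraries in view, and each is shown by its transcript row with the highest mean FPKM (reads scaled to transcript length and library size) over all 10 libraries. That mean is therefore a description of the choice, and no statement on the set as a whole rests on a test. A549 is known for high aldehyde dehydrogenase and aldo-keto reductase levels, but the libraries include no A549 or umbilical vein cells, so a carcinoma origin of the transcripts could not be checked here.

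The study deleted the promoters of 2 long noncoding RNAs, *VEGFA-LNC* and *VEGFC-LNC*, with CRISPR/Cas9 to learn which genes respond beyond the neighbouring *VEGFA* and *VEGFC* genes. The libraries were total RNA, depleted of rRNA, from 3 homozygous clones with the *VEGFA-LNC* deletion, 3 homozygous clones with the *VEGFC-LNC* deletion, 2 *VEGFA-LNC* controls and 2 *VEGFC-LNC* controls. Controls received the gRNAs without Cas9 and passed through clonal selection too. The cells were kept in high-glucose medium with serum, and the labels name no drug or other inducer of these genes. The sources used here do not say whether the 2 controls of a set were separate clones, and the lncRNAs themselves were not analysed here.

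As background, enzymes of this kind clear reactive aldehydes, drugs and hormones in successive steps. Dehydrogenases, reductases, P450 enzymes and esterases alter the compound, transferases such as the UGT1A enzymes attach a glucuronic acid, and carriers of the OATP family move organic anions across the plasma membrane. Many of the reductases and conjugating enzymes are targets of the transcription factor NRF2 (*NFE2L2*), which the adaptor KEAP1 holds at a low level, and the aryl hydrocarbon receptor (*AHR*) and vitamin D receptor (*VDR*) drive other members.

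The largest response among the genes was that of *SLCO1B3*, which encodes the organic anion carrier OATP1B3 of hepatocytes. The table lists 2 of its transcripts, both on the plus strand of chromosome 12. The row shown throughout, NM_001349920 (chr12:20975477-21069843, hg19), starts 11839 bases downstream of NM_019844 (chr12:20963638-21069843), inside the gene. The promoter that RefSeq lists for the gene is shown because *SLCO1B3* had the largest response. It lies around the upstream start, like that of NM_019844, and not at the start of the row shown throughout. It runs from 250 bases before to 50 bases after the start in RefSeq (GRCh38.p14, chr12:20810455-20810754, plus strand).
SLCO1B3 RefSeq promoter: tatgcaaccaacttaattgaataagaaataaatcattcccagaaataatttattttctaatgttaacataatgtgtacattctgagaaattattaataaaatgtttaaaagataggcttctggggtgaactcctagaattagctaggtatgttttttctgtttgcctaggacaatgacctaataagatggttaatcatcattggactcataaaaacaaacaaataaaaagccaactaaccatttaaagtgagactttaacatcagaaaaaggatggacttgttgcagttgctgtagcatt
This window contained 30.0% G and C.

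The AKR1C enzymes, which reduce ketosteroids, prostaglandins and aldehydes, come from near-identical genes on chromosome 10. The opening 120 coding bases of each (hg19) are shown because they set how far 75-base reads can be told apart, with capitals where a gene differs from *AKR1C1*.
AKR1C1: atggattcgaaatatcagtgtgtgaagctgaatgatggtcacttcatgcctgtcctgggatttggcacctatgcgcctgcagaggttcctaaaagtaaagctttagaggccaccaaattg
AKR1C2: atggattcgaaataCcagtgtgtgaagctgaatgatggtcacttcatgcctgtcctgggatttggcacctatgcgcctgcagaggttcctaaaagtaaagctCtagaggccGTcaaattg
AKR1C3: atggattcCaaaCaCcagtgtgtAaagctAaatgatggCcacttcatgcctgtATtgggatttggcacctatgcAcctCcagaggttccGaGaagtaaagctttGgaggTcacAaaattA
Over the whole coding sequence of 972 bases, *AKR1C2* differed from *AKR1C1* at 19 bases (98.0% identical) and *AKR1C3* differed from *AKR1C1* at 83 (91.5%). Of the 898 windows of 75 bases in *AKR1C1*, 33.6% were also in *AKR1C2* and 7.68% in *AKR1C3*. How reads that match several places were assigned is not given for this table, so values of *AKR1C1* and *AKR1C2* are uncertain between these genes. *AKR1B10* shared 8.21% of its 75-base windows with its neighbour *AKR1B15*.

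The libraries held 6743824 to 24197588 reads. Cpm was taken as FPKM multiplied by the length of the transcript, and genes with 1 cpm or more in 2 or more libraries were tested, which left 13333 genes and 6 of the 10 named genes. The tested genes were *AKR1B10*, *AKR1C1*, *AKR1C2*, *AKR1C3*, *AADAC* and *SLCO1B3*. *AKR1C1* passed by the narrowest margin, with 4 libraries over the filter, 2 of them *VEGFA-LNC* controls. *ALDH3A1* came closest among those left out, with 0.814 cpm at most. A DEG (differentially expressed gene) passed an FDR of 0.05 and changed by 1.5-fold or more in limma over all tested genes. Log2 FC values are differences of log2(FPKM + 0.1), which understates the FC of low genes. The members were low to middling: 48.6% of the tested genes had a lower mean than *AKR1C3*, 48.4% a lower mean than *SLCO1B3*, 27.4% than *AADAC*, 21.5% than *AKR1B10*, and 0.210% than *ALDH1A1*.

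**Figure D1:**
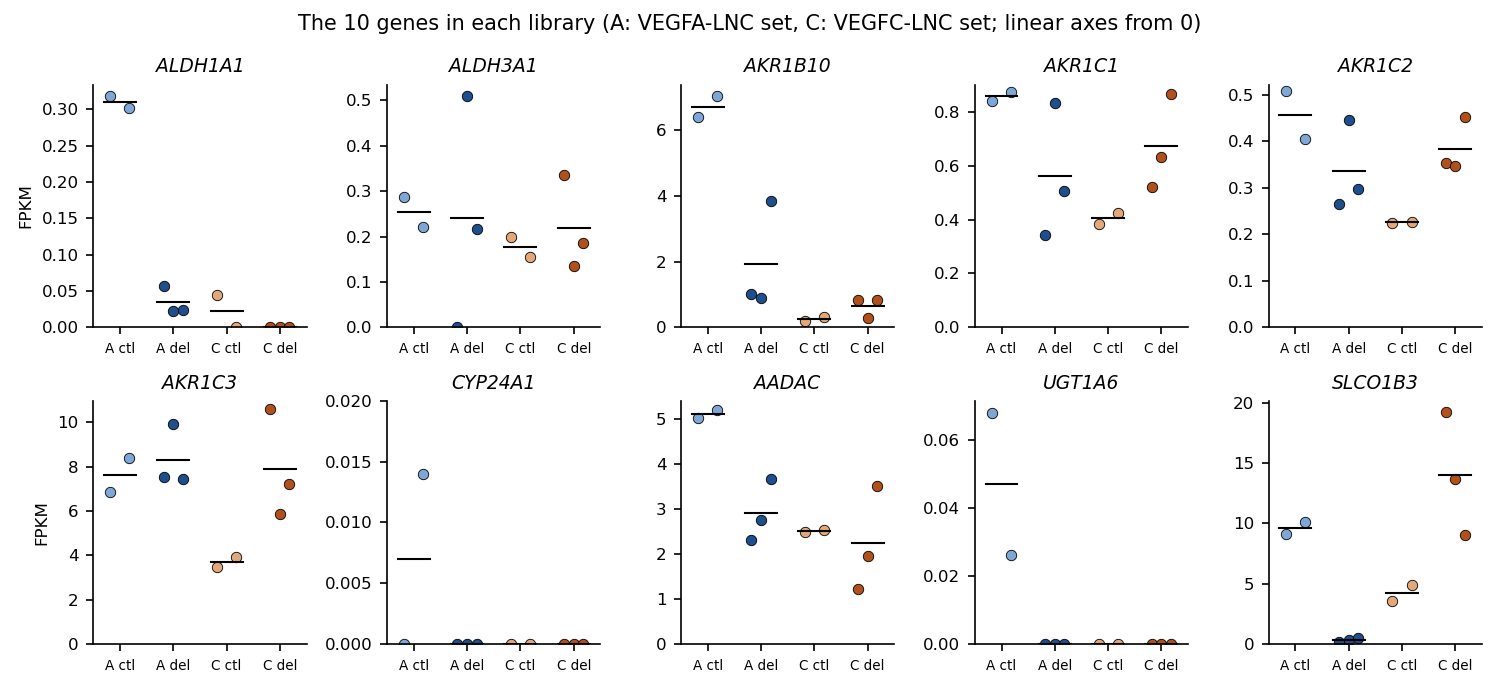
FPKM of the 10 genes in every library, one panel per gene with a linear axis from 0; A is the VEGFA-LNC set, C the VEGFC-LNC set, ctl control and del deletion. Points are libraries and the line is the group mean; the 3 VEGFA-LNC deletion points of SLCO1B3 lie between 0.168 and 0.472 FPKM, below every other library.

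The aldehyde dehydrogenases were close to the limit of detection. *ALDH1A1* (NM_000689, chr9:75515578-75568233), which oxidises retinal to retinoic acid and is abundant in A549, stood at 0.318 and 0.301 FPKM in the *VEGFA-LNC* controls, or 13 and 16 reads. The *VEGFA-LNC* deletion clones had 0.0570, 0.0230 and 0.0240 FPKM, which are 2, 1 and 1 reads. The *VEGFC-LNC* controls had 1 read and 0 reads, and all 3 *VEGFC-LNC* deletion clones had 0. The *VEGFA-LNC* controls thus lay above every other library. A count of 0 allows up to 3 reads, 0.0527 to 0.189 FPKM across the libraries, so the 3 other groups were at or under that limit and no FC is given between them. *ALDH1A1* was outside the tested genes. In a fit without the filter, over 22840 genes, its log2 FC was -1.61 (SE 0.19, FDR 0.00445, limma) upon *VEGFA-LNC* deletion and -1.77 (SE 0.21, FDR 0.00344, limma) between the control sets. As the RNA came from whole cultures, fewer cells with a transcript and less of it per cell cannot be told apart, here and below.

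*ALDH3A1* (NM_001330150, chr17:19641298-19651746), which oxidises aromatic and lipid-derived aldehydes, showed no such order. Its levels were 0.288 and 0.222 FPKM in the *VEGFA-LNC* controls and 0, 0.509 and 0.216 FPKM in their deletion clones. The *VEGFC-LNC* controls had 0.198 and 0.155 FPKM and the deletion clones 0.335, 0.135 and 0.185 FPKM. Both deletion groups spanned their controls, and the highest library held 15 reads. The other aldehyde dehydrogenases carried the expression of the family: 12 of the 19 listed genes were tested, all of them outside the 10, and 0 were DEGs in any of the 3 comparisons by limma. An unadjusted p under 0.05 was reached by 2 upon *VEGFA-LNC* deletion, 0 upon *VEGFC-LNC* deletion and 2 between the control sets, and voom called 1, 0 and 0. Of all tested genes 2.75%, 0.473% and 12.7% were DEGs by limma in those comparisons. *ALDH18A1*, which makes a proline precursor, had means of 27.5 to 35.7 FPKM in the groups, and *ALDH9A1*, which oxidises aminoaldehydes, 14.5 to 22.2 FPKM.

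*AKR1B10* (NM_020299, chr7:134212344-134226166), which reduces retinal and lipid aldehydes, separated the control sets more than the 5 other tested members did. It stood at 6.39 and 7.05 FPKM in the *VEGFA-LNC* controls and at 0.199 and 0.313 FPKM in the *VEGFC-LNC* controls. The log2 FC between the control sets was -4.28 (SE 0.68, FDR 0.00878, limma), with *VEGFC-LNC* controls lower. The *VEGFA-LNC* deletion clones had 1.02, 0.890 and 3.85 FPKM. All 3 lay below their controls, but the third clone stood well above the others, and the log2 FC of -2.06 (95% interval -3.46 to -0.66, FDR 0.116, limma) was not a DEG. In the *VEGFC-LNC* deletion clones it was 0.845, 0.273 and 0.843 FPKM, overlapping the controls, with a log2 FC of 0.98 (-0.42 to 2.38, FDR 0.40, limma). The call between control sets was lost without any 1 of the 4 control libraries, where the FDR was 0.0656 to 0.0955 (limma) with the log2 FC between -4.51 and -4.04.

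Its relatives on chromosome 7 were measured beside it. *AKR1B1*, the aldose reductase of the polyol pathway, was the most abundant reductase of the list with means of 435 ± 30.4 and 88.1 ± 3.75 FPKM (SD, n = 2 each) in the *VEGFA-LNC* and *VEGFC-LNC* controls, a log2 FC of -2.30 (FDR 0.0230, limma). *AKR1B15* stood at 1.14 ± 0.296 against 0.149 ± 0.0658 FPKM (SD, n = 2 each) in those groups, a log2 FC of -2.32 (FDR 0.0114, limma). Neither was a DEG upon either deletion. Upon *VEGFA-LNC* deletion the log2 FC was -1.38 (FDR 0.149, limma) for *AKR1B1* and -1.4 (FDR 0.0775, limma) for *AKR1B15*, with all clones below their controls. *AKR1B15* had only 3 and 4 reads in the *VEGFC-LNC* controls. *DHRS9*, a retinol dehydrogenase, was the third DEG of this list between control sets, with a log2 FC of -3.51 (FDR 0.0393, limma), while *AKR1A1*, the widely expressed aldehyde reductase, had group means of 33.7 to 47.8 FPKM and a log2 FC of -0.34 (FDR 0.42, limma). Around *AKR1B10*, the 42 other tested genes within 5 Mb had a median log2 FC of -0.24 between control sets and 6 were DEGs. *AKR1B1* and *AKR1B15* are among the 42. Of all tested genes 12.7% were DEGs there, with a median of -0.108.

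The AKR1C genes were unlike *AKR1B10* in level and spread. *AKR1C3* (NM_003739, chr10:5136568-5149878), which makes testosterone and prostaglandin F2 from their ketone precursors, was at 6.83 and 8.40 FPKM in the *VEGFA-LNC* controls and 3.47 and 3.92 FPKM in the *VEGFC-LNC* controls. The *VEGFC-LNC* controls were lower, with a log2 FC of -1.02 (SE 0.27, FDR 0.0435, limma). The *VEGFA-LNC* deletion clones had 7.54, 9.92 and 7.44 FPKM, within or just above their controls, with a log2 FC of 0.12 (-0.45 to 0.69, FDR 0.83, limma). The *VEGFC-LNC* deletion clones had 10.6, 5.84 and 7.21 FPKM, all above their controls, with a log2 FC of 1.03 (0.46 to 1.60, FDR 0.108, limma) that was not a DEG. The call between control sets was at the edge of the threshold and was lost in 11 of 19 alternatives, with an FDR of up to 0.551 (limma).

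*AKR1C1* (NM_001353, chr10:5005454-5020158), which inactivates progesterone, stood at 0.841 and 0.874 FPKM in the *VEGFA-LNC* controls, 0.344, 0.832 and 0.504 FPKM in their deletion clones, 0.385 and 0.423 FPKM in the *VEGFC-LNC* controls and 0.522, 0.633 and 0.867 FPKM in their deletion clones. *AKR1C2* (NM_001321027, chr10:5029968-5046206), which inactivates dihydrotestosterone, followed at 0.508 and 0.405 FPKM, then 0.266, 0.446 and 0.298, then 0.225 and 0.227, and finally 0.353, 0.346 and 0.452 in the same order. In both genes the *VEGFC-LNC* controls were lowest among the group means, and no contrast was a DEG. These values rest on 5 to 30 reads per library and on reads that the genes partly share. Between the control sets the log2 FC was -0.93 (-1.75 to -0.11, FDR 0.12, limma) for *AKR1C1* and -0.77 (-1.42 to -0.12, FDR 0.108, limma) for *AKR1C2*.

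*CYP24A1* (NM_000782, chr20:52769988-52790516), the 24-hydroxylase that inactivates vitamin D, gave 1 read in all 10 libraries together, in a *VEGFA-LNC* control. The limit set by 3 reads was 0.0381 to 0.137 FPKM per library. It is a target of *VDR*, and *VDR* itself averaged 6.29 ± 0.248 and 1.05 ± 0.0177 FPKM (SD, n = 2 each) in the *VEGFA-LNC* and *VEGFC-LNC* controls. Their deletion clones averaged 1.11 ± 0.0346 and 0.596 ± 0.559 FPKM (SD, n = 3 each). The control sets differed in *VDR* with a log2 FC of -2.47 (FDR 0.0283, limma), and the *VEGFA-LNC* deletion gave -2.40 (FDR 0.0513, limma). *CYP27B1*, the 1-hydroxylase that activates vitamin D, fell upon *VEGFA-LNC* deletion from 5.96 ± 0.109 to 2.50 ± 0.413 FPKM (SD, n = 2 and 3), a log2 FC of -1.24 (FDR 0.0156, limma). *CYP27B1* was lower in the *VEGFC-LNC* controls too, with a mean of 2.84 FPKM and a log2 FC of -1.04 (FDR 0.0154, limma).

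*AADAC* (NM_001086, chr3:151531861-151546276), an esterase that hydrolyses drugs such as flutamide, was at 5.04 and 5.21 FPKM in the *VEGFA-LNC* controls, and its deletion clones had 2.31, 2.75 and 3.67 FPKM. All clones lay below their controls, with a log2 FC of -0.82 (-1.66 to 0.02, FDR 0.265, limma) that was not a DEG. The *VEGFC-LNC* controls had 2.50 and 2.53 FPKM and the deletion clones 1.23, 1.96 and 3.52 FPKM, on both sides of the controls, with a log2 FC of -0.28 (-1.13 to 0.56, FDR 0.687, limma). The related hydrolase *EPHX1*, a microsomal epoxide hydrolase, fell upon *VEGFA-LNC* deletion from 21.3 ± 0.220 to 12.7 ± 1.25 FPKM (SD, n = 2 and 3), a log2 FC of -0.75 (FDR 0.0373, limma). *EPHX1* was lower in the *VEGFC-LNC* controls too, with a mean of 10.1 FPKM and a log2 FC of -1.07 between control sets (FDR 0.00736, limma).

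*UGT1A6* (NM_205862, chr2:234600321-234681945), a phenol glucuronosyltransferase, had 2 reads and 1 read in the *VEGFA-LNC* controls and 0 in the other 8 libraries, where 3 reads would be 0.0737 to 0.264 FPKM. These 3 reads were counted in all 10 rows of the 9 UGT1A symbols alike, so they cannot be assigned to *UGT1A6*. Glucuronidation otherwise rested on the suppliers of its sugar donor, *UGP2* with group means of 32.0 to 38.7 FPKM and *UGDH* with 24.4 to 33.0 FPKM, and 0 of the 3 tested genes of that list were DEGs by limma or by voom, with 2 at an unadjusted p under 0.05 upon *VEGFA-LNC* deletion and 0 in the other comparisons.

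*SLCO1B3* was at 9.15 and 10.1 FPKM (446 and 641 reads) in the *VEGFA-LNC* controls. The 3 *VEGFA-LNC* deletion clones had 0.168, 0.290 and 0.472 FPKM (7, 15 and 23 reads). The *VEGFC-LNC* controls had 3.53 and 4.87 FPKM, and the *VEGFC-LNC* deletion clones had 19.2, 13.7 and 9.05 FPKM. Every clone of the *VEGFA-LNC* deletion was thus below every other library, and every *VEGFC-LNC* deletion clone was above its own controls. Upon *VEGFA-LNC* deletion the gene fell by 4.64 on the log2 scale (SE 0.37, FDR 0.0016, limma), from a mean of 9.64 ± 0.692 to 0.310 ± 0.153 FPKM (SD, n = 2 and 3). Upon *VEGFC-LNC* deletion the log2 FC was 1.66 (0.82 to 2.51, FDR 0.0904, limma), which was not a DEG. The effects of the 2 deletions differed by -6.30 on the log2 scale (SE 0.53, FDR 0.00325, limma). Between the control sets the log2 FC was -1.20 (-2.12 to -0.27, FDR 0.0865, limma). The decrease was kept in 19 of 20 alternatives, with a log2 FC of -5.03 to -3.03 over all of them, and the FDR was 0.168 (limma) where the controls of a set were averaged.

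**Figure D2:**
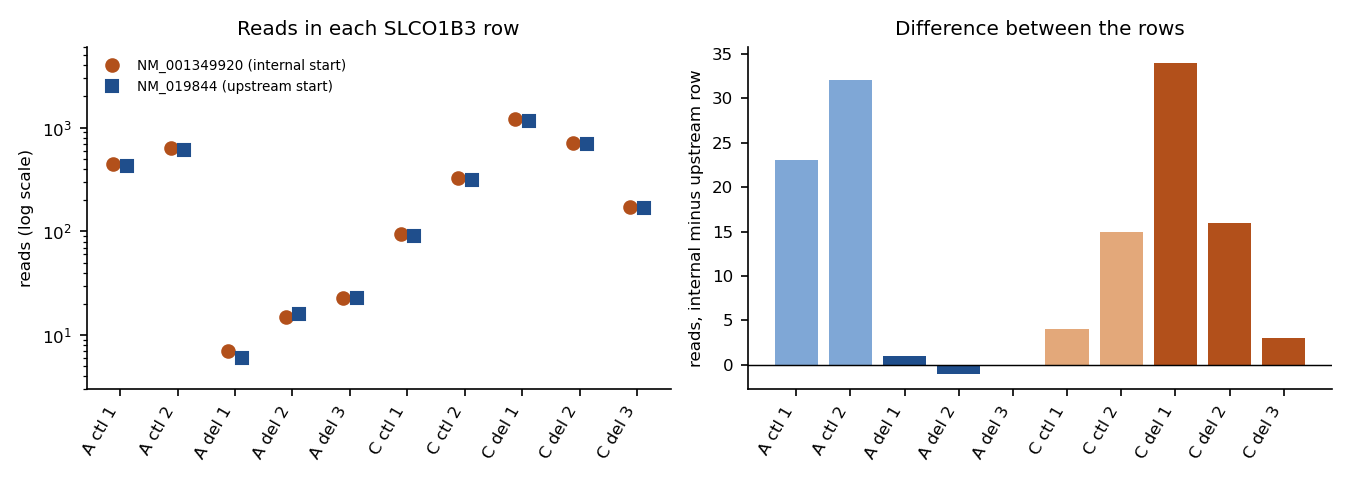
Left, reads per library counted in the SLCO1B3 rows with the internal (circles) and the upstream start (squares) on a log axis; right, reads in the internal-start row minus reads in the upstream-start row, bars from 0. The surplus of the internal-start row is 23 and 32 reads in the VEGFA-LNC controls and 34 in the first VEGFC-LNC deletion clone.

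The row with the internal start counted 3642 reads over all libraries and the row with the upstream start 3515, although the latter is 192 bases longer. The surplus was 23 and 32 reads in the *VEGFA-LNC* controls, 4 and 15 in the *VEGFC-LNC* controls and 34, 16 and 3 in the *VEGFC-LNC* deletion clones. The *VEGFA-LNC* deletion clones, with few reads, had differences of 1, -1 and 0. Which start the reads came from was not tested, since most bases of the rows are counted in both. *SLCO1B7*, the neighbouring OATP-like gene (chr12:21168630-21243040), also fell upon *VEGFA-LNC* deletion, from 0.529 ± 0.236 to 0.0390 ± 0.0338 FPKM (SD, n = 2 and 3), a log2 FC of -2.16 (FDR 0.0276, limma). Its controls held 12 and 30 reads and the clones 0, 2 and 2, under the limit of 3 reads, so the size of the fall is uncertain. *SLCO1B7* overlaps annotated transcripts that read through from *SLCO1B3*, so the rows are uncertain between these genes. The 24 other tested genes within 5 Mb of *SLCO1B3* had a median log2 FC of -0.14 upon *VEGFA-LNC* deletion, with 5 DEGs, and of -0.37 upon *VEGFC-LNC* deletion, while *SLCO1B3* itself was higher in those clones than in their controls. *SLCO1B7* is among the 24 and their DEGs, as is *ABCC9* at -2.9 (FDR 0.00232, limma), named below for its likeness to *ALDH1A1*. Of all tested genes 2.75% were DEGs upon *VEGFA-LNC* deletion, and the medians upon the deletions were -0.059 and -0.09. *SLCO1B1*, the other hepatic OATP of this cluster, was not tested, with group means of 0 to 0.242 FPKM.

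**Figure D3:**
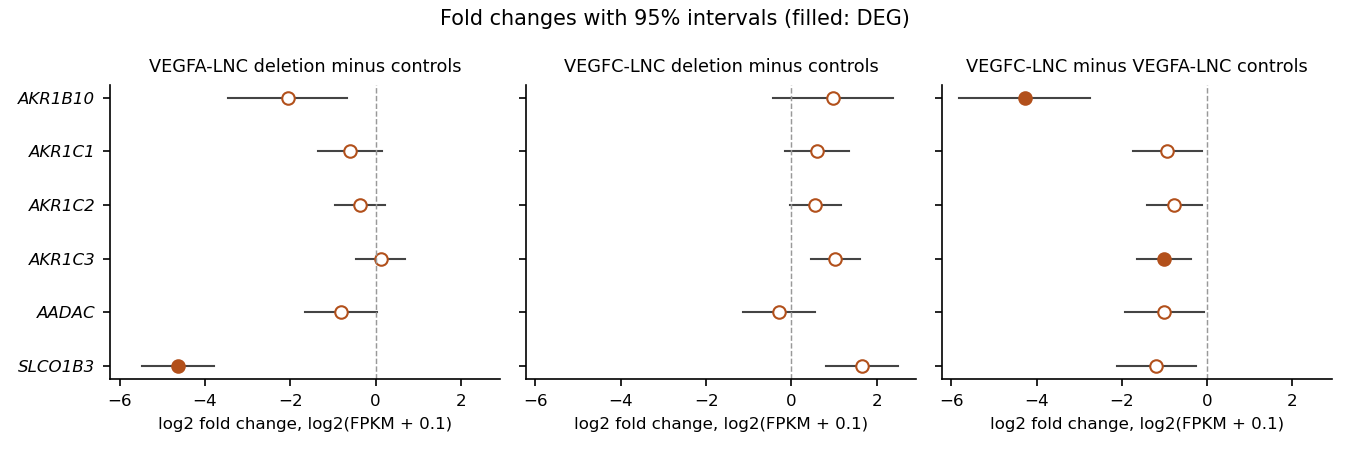
Log2 FC on the log2(FPKM + 0.1) scale of the 6 tested genes for each deletion against its controls and between the control sets; lines are 95% intervals and filled points are DEGs. SLCO1B3 at -4.64 is the filled point upon VEGFA-LNC deletion, and AKR1B10 at -4.28 and AKR1C3 at -1.02 are those between the control sets.

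Seen together, 1 of the 6 tested genes was a DEG upon *VEGFA-LNC* deletion, where 2.75% of all tested genes were DEGs and 2.02% were DEGs with a lower level. In that comparison 5 of the 6 had negative log2 FC, with a median of -0.71 against -0.059 for all tested genes, and the groups did not overlap in 4 of the 6 genes, against 39% of all tested genes. Upon *VEGFC-LNC* deletion 0 of the 6 were DEGs by limma, 2 had an unadjusted p under 0.05, and limma with voom on the recovered reads called 0. Of all tested genes 0.473% were DEGs there and 0.15% were DEGs with a higher level. The groups did not overlap in 4 of the 6 genes, against 47.8% of all tested genes, and the median was 0.79 against -0.09. Between the control sets 2 of the 6 were DEGs, against 12.7% of all tested genes and 9.76% with a lower level. All 6 had negative log2 FC there and did not overlap, but 82.9% of all tested genes did not overlap either, and the median of all tested genes was itself at -0.108. For the difference between the deletions 1 of the 6 was a DEG, against 1.46% of all tested genes. The *VEGFA-LNC* deletion and the control sets were both compared with the same 2 *VEGFA-LNC* controls, so high values in these pull both log2 FC down. The 2 comparisons are therefore not independent, although a gene need not be lower in both. *AKR1C3* had a log2 FC of -1.02 between the control sets and 0.12 upon *VEGFA-LNC* deletion. The 2 controls of a set were much closer to each other (median SD over genes of 0.065 and 0.064 on the log2 scale) than the clones of a deletion (0.287 and 0.249), and p-values measure only the spread between these libraries.

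The rest of the pathway was described by 10 gene lists, with 241 genes outside the 10, of which 131 were tested. Upon *VEGFA-LNC* deletion 8 of the 131 (6.11%) were DEGs, 7 lower and 1 higher, against 2.75% of all tested genes. The median log2 FC was -0.22, against -0.059 for all tested genes, and 36 of the 131 had an unadjusted p under 0.05 (limma). Upon *VEGFC-LNC* deletion 0 were DEGs by limma, against 0.473% of all tested genes, while 24 had an unadjusted p under 0.05 and voom called 1. Between control sets 25 (19.1%) were DEGs, 24 lower in the *VEGFC-LNC* controls and 1 higher, against 12.7% of all tested genes. The median was -0.35, against -0.108 for all tested genes, and 43 of the 131 had an unadjusted p under 0.05 (limma).

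**Figure D4:**
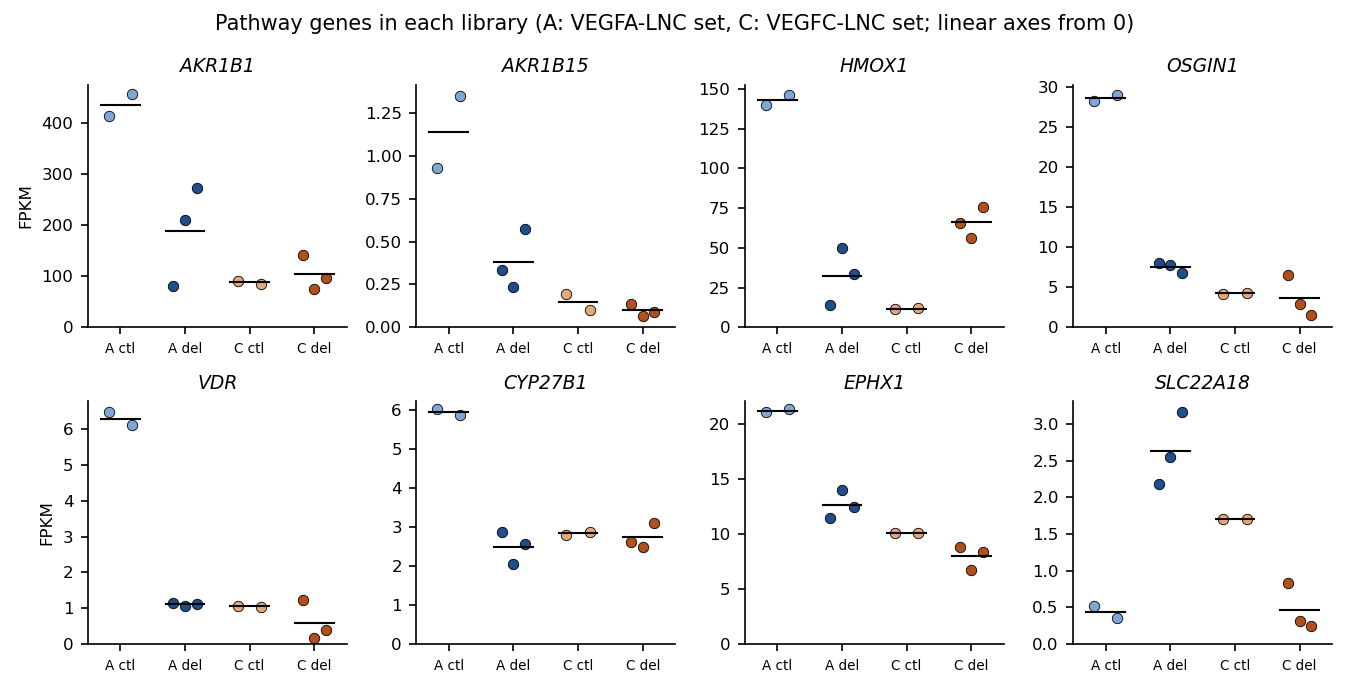
FPKM of 8 further genes of the pathway in every library, with linear axes from 0; groups, points and lines are as in the plot of the 10 genes. HMOX1 has 140 and 146 FPKM in the VEGFA-LNC controls and 11.4 and 11.9 FPKM in the VEGFC-LNC controls, with both sets of deletion clones between them.

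The NRF2 list had the most tested genes. Of its 32 tested genes, 2 were lower upon *VEGFA-LNC* deletion, where 2.02% of all tested genes were lower DEGs, and 10 were lower in the *VEGFC-LNC* controls, where 9.76% were, with medians of -0.34 and -0.40, whereas upon *VEGFC-LNC* deletion the median was 0.12. *HMOX1*, the heme oxygenase, had 140 and 146 FPKM in the *VEGFA-LNC* controls and 13.8, 49.7 and 33.5 FPKM in their deletion clones, and fell with a log2 FC of -2.33 (FDR 0.0313, limma). Upon *VEGFC-LNC* deletion *HMOX1* was at 66.0 ± 9.80 FPKM (SD, n = 3) against 11.7 ± 0.344 (SD, n = 2), a log2 FC of 2.48 (FDR 0.0537, limma), which was not a DEG. The other lower gene upon *VEGFA-LNC* deletion was *ME1*, the NADPH-making malic enzyme, at -1.45 (FDR 0.00468, limma). *OSGIN1*, an oxidative stress growth inhibitor, differed between control sets by a log2 FC of -2.73 (FDR 0.0137, limma), as did the small MAF partners of NRF2, *MAFK* at -1.85 (FDR 0.0188, limma) and *MAFF* at -1.91 (FDR 0.0461, limma). The ferritin chains were the most abundant genes of the list, with *FTL* at group means of 2039 to 2834 FPKM and *FTH1* at 538 to 787 FPKM, and neither was a DEG. *NFE2L2* itself had group means of 26.7 to 37.4 FPKM and *KEAP1* of 26.8 to 34.8 FPKM, without a DEG in any comparison.

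Of all tested genes 2.75% were DEGs upon *VEGFA-LNC* deletion and 12.7% between control sets. The P450 list had 2 and 3 DEGs in those comparisons. Among its 15 tested genes, *CYP4F2* fell upon *VEGFA-LNC* deletion with a log2 FC of -1.89 (FDR 0.0487, limma), and between control sets *CYP4F2* and *CYP4F3*, paralogs that hydroxylate leukotrienes and vitamin E or K side chains, had log2 FC of -2.48 and -2.62 (FDR 0.0132 and 0.0133, limma). All their libraries were below 1 FPKM, and reads may be shared between these paralogs. *CYP51A1* of sterol synthesis and the electron donor *POR* were the most abundant, with group means of 19.7 to 40.4 and 14.3 to 20.2 FPKM, and were not DEGs. Of the 15 tested glutathione transferases and other conjugating enzymes, 1 was a DEG between control sets, *NNMT*, which methylates nicotinamide, at -0.82 (FDR 0.0179, limma). *GSTP1* and *GSTO1* had group means of 168 to 208 FPKM for the former and at most 211 FPKM for the latter.

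Among 17 tested transporters outside the 10, *SLC22A18*, an organic cation carrier of the imprinted region on chromosome 11, rose upon *VEGFA-LNC* deletion from 0.436 ± 0.109 to 2.63 ± 0.500 FPKM (SD, n = 2 and 3), a log2 FC of 2.35 (FDR 0.0252, limma), the reverse of *SLCO1B3*. It was higher in the *VEGFC-LNC* controls too, at 1.71 in both libraries. *SLC47A1*, a drug and toxin extruder, differed between control sets at -1.11 (FDR 0.0393, limma), and *ABCC1* and *SLCO4A1* led in level with group means of 23.0 to 28.6 and 14.7 to 18.1 FPKM. Of the 14 tested receptors and regulators, *TIPARP*, a target of AHR, fell upon *VEGFA-LNC* deletion at -0.72 (FDR 0.0338, limma). *TIPARP* was lower in the *VEGFC-LNC* controls too, at -0.92 (FDR 0.0096, limma). *CEBPB*, a liver and stress transcription factor, and *RARB*, a retinoic acid receptor, were lower in the *VEGFC-LNC* controls at -2.28 (FDR 0.00972, limma) and -1.79 (FDR 0.0384, limma). *AHR* had group means of 8.20 to 11.6 FPKM without a DEG. In the retinoid and vitamin D list, *RDH10*, which makes retinal, was the DEG beside *CYP27B1* between control sets, at -1.13 (FDR 0.0105, limma), and *RDH11* and *DHCR7* were highest in level.

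By pattern over the 10 libraries, the genes most like *ALDH1A1* were *ABCC9* (Pearson r = 0.988), *SLAMF7* (0.986) and *PTGS1* (0.970), those most like *AKR1B10* were *USO1* (0.990), *SLC12A4* (0.986) and *SRA1* (0.977), and those most like *SLCO1B3* were *ALS2CL* (0.967), *LINC01419* (0.959) and *MYSM1* (0.948). These coefficients are on log2(FPKM + 0.1) over libraries that fall into 4 groups, so they describe likeness of group means. *LINC01419* had 2.50 ± 0.320 FPKM (SD, n = 2) in the *VEGFA-LNC* controls and 0.0147 ± 0.0254 FPKM (SD, n = 3) in the clones, and 4.97 ± 2.82 FPKM (SD, n = 3) in the *VEGFC-LNC* clones.

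The cells expressed endothelial markers together with keratins. Of 15 endothelial markers 14 were tested, led by *ENG* and *ICAM2*, with a summed level of 741 to 1629 FPKM over all libraries, and *CLDN5* was at 0 reads. Of these *EMCN*, a sialomucin of veins and capillaries, was lower upon *VEGFC-LNC* deletion at -5.08 (FDR 0.0467, limma) and *EGFL7* higher in the *VEGFC-LNC* controls at 1.46 (FDR 0.0234, limma). Of 15 epithelial markers only the keratins *KRT7*, *KRT8* and *KRT18* were tested, with a summed level of 1077 to 1088 FPKM in the *VEGFA-LNC* controls, 487 to 1312 in their clones, 899 to 912 in the *VEGFC-LNC* controls and 439 to 867 in theirs. *CDH1* was below 0.5 FPKM in every library and *CLDN3* at 0 reads. Of 13 alveolar markers 3 were tested, led by *ABCA3* and *AGER*, of which *AGER* was higher in the *VEGFC-LNC* controls at 1.99 (FDR 0.0114, limma). *AGER* had only 6 and 5 reads in the *VEGFA-LNC* controls. The 5 surfactant genes were below 0.5 FPKM throughout and *NKX2-1* was at 0 reads. Of 11 hepatocyte markers 0 reached the filter and *APOA2* was at 0 reads, with a summed level of at most 0.709 FPKM, the highest of them being *FGA* and *APOH*. Fibroblast markers summed to 8.98 to 9.94 FPKM in the *VEGFA-LNC* controls, 2.58 to 4.24 in their clones, 2.13 to 2.32 in the *VEGFC-LNC* controls and 0.214 to 1.09 in theirs, mostly *THY1*, with *PDGFRA* next and 0 of 9 at 0 reads. *COL1A1*, below 0.5 FPKM in every library, was lower upon *VEGFA-LNC* deletion at -1.50 (FDR 0.0422, limma) and in the *VEGFC-LNC* controls at -1.34 (FDR 0.037, limma). Blood cell markers summed to 49.9 to 54.7, 40.2 to 45.4, 26.1 to 26.3 and 17.6 to 18.4 FPKM in that order, mostly *CD68*, which many cell types express, then *LYZ*, with *HBB* at 0 reads. *CD68* and *ITGAM* were lower in the *VEGFC-LNC* controls, at -0.91 (FDR 0.0078, limma) and -1.88 (FDR 0.00841, limma). The fibroblast and blood sums were higher in the *VEGFA-LNC* controls than in any other library, as were *ALDH1A1*, *AKR1B10* and *AADAC*. By group mean *ALDH3A1*, *AKR1C1* and *AKR1C2* were also highest there, as were *UGT1A6* and *CYP24A1* on 3 reads and 1 read. *AKR1C3* and *SLCO1B3* were highest in deletion clones. Of the 9 fibroblast markers 8 were below 0.5 FPKM in every library. Whether these sums bear on the 10 genes was not tested.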

How the data were processed

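RNA-Seq (single end, 75 bases) had been done by the authors. Per the labels and the paper's methods, reads were trimmed with Trim Galore (version 0.4.4), aligned to GRCh37 with STAR (version 2.5.4b) and counted for Gencode genes with featureCounts. The deposited file, 1 table with 65572 RefSeq transcript rows on hg19, holds FPKM made by the authors, 1 column per library. Its counting of shared or multimapping reads is not given in the sources used here. FPKM times length gave whole reads (100% of the low values checked, within 0.15 of a read), from which depth was recovered. The floors of 3 reads cover counting error only, since reads carried no molecular identifiers. The 95% intervals come from the limma fit and measure the spread between libraries.

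The row with the highest mean per symbol was kept, and 42 rows without a symbol were left out. Genes with at least 1 cpm in at least 2 libraries were fitted as log2(FPKM + 0.1) in limma (version 3.58.1, R version 4.3.3) with lmFit and eBayes with a mean-variance trend, 4 group means and 6 residual degrees of freedom. FDRs follow Benjamini and Hochberg over all 13333 genes. The fit was tested on simulated data in which all groups had the same spread. In the real libraries the controls were closer to each other than the clones, so that test cannot show how the calls fare under unequal spread. The members and gene lists were chosen with earlier results of these data known.

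Genes named beyond the members were, per list, up to 4 DEGs with the largest log2 FC and the 2 with the highest mean, for marker lists the latter only, the 3 most alike by pattern for *ALDH1A1*, *AKR1B10* and *SLCO1B3*, and *NFE2L2*, *KEAP1*, *VDR* and *AHR*. *SLCO1B1*, *ME1*, *EMCN*, *EGFL7*, *COL1A1*, *ITGAM* and the markers at 0 reads were named after their values were seen. Alternatives were the pseudocount, the filter, the scaling, voom on recovered reads, pooled or averaged controls, the sum over transcripts, a replicate block and leaving out each library. Tables were handled in Python (version 3.11.15) with pandas (version 2.3.3), and figures were drawn with matplotlib (version 3.10.9). Some items are not reported here.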

Additional observations from a re-analysis of the deposited data

Results flagged for a closer look

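The responses to the 2 deletions differed for some of the genes by the interaction term of the limma fit, given here as the log2 effect of the *VEGFA-LNC* deletion minus that of the *VEGFC-LNC* deletion. *SLCO1B3* had -6.30 (FDR 0.00325, limma), with all 3 *VEGFA-LNC* clones below and all 3 *VEGFC-LNC* clones above their controls. Among the transporters, *SLCO1B7* had -3.26, with at most 2 reads in a *VEGFA-LNC* clone, and *SLC22A18*, in the other direction, 4.19. *HMOX1* had -4.81, *TIPARP* -1.02 and *NNMT* -1.10. Of the genes alike in pattern, *LINC01419* had -5.86, *SLAMF7* -3.20 and *ABCC9* -2.61. These were picked by their pattern over the same libraries, so their terms are no separate evidence. In the *VEGFC-LNC* libraries *SLAMF7* had at most 1 read and *ABCC9* at most 2, so a fall upon *VEGFC-LNC* deletion could not be seen for them. *AKR1B10*, at -3.04 (95% interval -5.02 to -1.05, FDR 0.127, limma), did not pass. Groups of 2 or 3 libraries were too small for a search for single libraries far from the rest.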

How the results depend on the processing

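*SLCO1B3* remained a DEG upon *VEGFA-LNC* deletion and for the difference between the deletions in every alternative except averaging the controls of a set. That alternative leaves 1 value per control set, and no member stayed a DEG in any comparison. The log2 FC of *SLCO1B3* upon *VEGFA-LNC* deletion stayed at -4.64. Averaging leaves fewer samples and also takes the close control libraries out of the estimate of spread. Which of these removed the calls was not tested. Without the filter 654 genes were called upon *VEGFA-LNC* deletion and 329 for the difference, and 2 members (*ALDH1A1* added) upon *VEGFA-LNC* deletion. With voom on recovered reads the first count was 551 and its members 2 (*AKR1B10* added), and 1 member was called between the control sets, as with median-of-ratios scaling (1). With all 4 controls 29 genes were called upon *VEGFA-LNC* deletion. With the replicate block 151, 20 and 86 genes were called upon *VEGFA-LNC* deletion, upon *VEGFC-LNC* deletion and for the difference, and the member counts were 1, 0 and 1. Deviations of same-numbered libraries from their group means had correlations of -0.043 to 0.047. The 2 controls of a set lie close together and deviate equally in opposite directions. These correlations therefore cannot tell whether same-numbered libraries shared more than a number.

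Leaving out 1 library at a time gave 6 to 1732 genes upon *VEGFA-LNC* deletion, 5 to 1158 upon *VEGFC-LNC* deletion, 33 to 3068 between the control sets and 5 to 694 for the difference, where a lone control is assumed to vary like the other groups. The highest count of each came without *VEGFA-LNC* clone 1, and the lowest with a control of the sets compared left out. The members called were 1 to 1, 0 to 2, 0 to 4 and 1 to 2. Both members called upon *VEGFC-LNC* deletion, *SLCO1B3* (FDR 0.020, limma) and *AKR1C3* (FDR 0.0385, limma), came with *VEGFA-LNC* clone 1 left out. With all 4 controls the log2 FC of *AKR1B10* turned to 0.08, -1.16 and 1.24 for the *VEGFA-LNC* deletion, the *VEGFC-LNC* deletion and the difference, that of *AKR1C2* to 0.017 upon *VEGFA-LNC* deletion, and those of *AKR1C3* and *AADAC* for the difference to 0.11 and 0.46. Leaving out 1 library at a time, the log2 FC of *AKR1C3* upon *VEGFA-LNC* deletion ranged from -0.029 (without the first control) to 0.266, and was also below 0 without the second clone, and that of *AADAC* upon *VEGFC-LNC* deletion from -0.662 to 0.062 (without the first clone). The causes were not tested. Depth limits *ALDH1A1*, *ALDH3A1*, *CYP24A1* and *UGT1A6*.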
